A study of Mus musculus with 12 samples.

Results

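The genes described here encode the matrix metalloproteinases (MMPs), the ADAMTS proteases, the ADAMTS-like (ADAMTSL) glycoproteins and the tissue inhibitors of metalloproteinases (TIMPs). They were chosen by symbol alone, as Mmp, Adamts or Adamtsl followed by a number, or Timp1 to Timp4. The array carried 45 such genes among 17178 named genes: 21 MMP, 17 ADAMTS, 3 ADAMTSL and 4 TIMP genes. Of these, 27 had a probe whose signal was well above background throughout 1 or more of the groups and were tested, among 12300 tested genes in all. They were 9 MMP, 11 ADAMTS, 3 ADAMTSL and 4 TIMP genes.

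Expression was measured on 12 single-colour arrays of C3H/10T1/2 cells, mouse embryo fibroblasts which can be turned towards skeletal muscle by MyoD, a basic helix-loop-helix transcription factor. All arrays came from stable hairpin lines, infected with a retrovirus and then kept for 24 h in medium with 2% horse serum. In shLuc cells, which carry the control hairpin, the virus was either the empty pBABE vector or pBABE with MyoD, and the same was done in shSix4 cells, which carry a hairpin against the homeobox factor Six4. This gave 4 groups of 3 arrays, and the design compares the MyoD response in both lines and the lines with each virus. The labels name 1 shSix4 and 1 shLuc line and leave out whether replicates came from different cultures, so p-values refer to the variation among these samples alone, part or all of which may be technical.

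MMPs are zinc-dependent endopeptidases that cut collagens, gelatin, laminin and other matrix proteins, and the membrane-type members act at the cell surface. ADAMTS proteases are secreted, several of them cut proteoglycans such as versican and aggrecan or remove the amino propeptide of procollagens, and the ADAMTSL proteins share their ancillary domains but lack the catalytic one. TIMPs bind the active site of these enzymes, and in muscle the balance of proteases and inhibitors is known for its part in matrix remodelling during myoblast migration, fusion and repair.

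Between 22318 and 27448 of 41174 probes per array were well above background, and arrays of a group correlated at r 0.955 to 0.993. The 3 replicates of each group lay on 3 slides, with 1 array of every group on each slide, and slide 1 was scanned in another session than slides 2 and 3. Values are therefore also given within each slide, and with the slide as a block in the fit. Six4 was 0.92 ± 0.49 (log2, SE) lower in shSix4 than in shLuc cells with empty vector and 1.17 ± 0.49 lower with MyoD, past the threshold only with MyoD and the slide block (adjusted p 0.0424). Myod1 was 4.03 ± 0.90 higher with MyoD in shLuc cells (adjusted p 0.0315, with the block 0.00257) and 2.10 ± 0.90 in shSix4 cells, where it was not called (0.482, with the block 0.0943). With MyoD the shSix4 arrays lay 1.45 ± 0.81 below the shLuc arrays (0.837, with the block 0.152). The Myod1 fit lacks vector replicate 3 of each line, where every spot of its probe was marked as an outlier. The fibroblast genes Col1a1, Col1a2 and Col3a1 were above background on all 12 arrays. Of 10 muscle markers, 9 were called higher with MyoD in both lines without the block, against 4.72% of all genes in shLuc and 2.79% in shSix4 cells. Of these, Myog, Myh3, Myl1, Chrna1, Ckm and Des entered the test only through the MyoD groups, while Tnnc2, Mylpf and Acta1 were above background on all 12 arrays. Between the lines with MyoD the muscle markers had a median of -1.51, with 1 lower in shSix4 cells and 6 with the block, and the part of this in the MyoD responses of the lines was not tested. Of 11 leukocyte and endothelial markers on the array, Ptprc, Pecam1 and Kdr were above background on 0 arrays, Itgam, Adgre1 and Cdh5 on 1 each and Lyz2 on 2, but Vwf on 7, Csf1r on 8, Tek on 11 and Cd14 on 12. In bulk RNA, fewer cells of a type and less RNA per cell cannot be told apart.

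Levels are log2 of the processed signal minus the array's 75th percentile, so a level of 0 equals that percentile, and levels of different genes are not compared because each rests on its own probe. A call means a limma p under 0.05 after Benjamini-Hochberg adjustment over 12300 genes, and errors of differences are limma standard errors (SE). Of the 27 tested genes, 21 were above background on all 12 arrays. Adamtsl2 was above background on 2, 3, 1 and 3 arrays in shLuc cells with vector, shLuc cells with MyoD, shSix4 cells with vector and shSix4 cells with MyoD, and Mmp24 on 3, 1, 2 and 1.

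The other 18 genes, 12 MMP and 6 ADAMTS genes, did not pass the filter. Of these, 9 were above background on 0 arrays: the collagenases Mmp8 and Mmp13, the stromelysin Mmp3, the macrophage elastase Mmp12, Mmp20, Mmp21, Adamts3, Adamts8 and Adamts19. Another 6 were above background on 1 to 3 arrays by any of their probes: Adamts13, Adamts20, Mmp1a, Mmp10, Mmp25 and Mmp28. Adamts18 was so on 7 arrays, Mmp7 on 5 and Mmp9 on 4.

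MyoD was followed in both lines by more Adamtsl2, the RNA of a secreted microfibril-associated glycoprotein, and in shLuc cells also by more Mmp15, the RNA of the membrane-type protease MT2-MMP. Adamtsl2 passed the filter only through the MyoD groups, and with no filter on dim probes its call in shSix4 cells was lost (limma adjusted p 0.0503). Mmp23, a cell-surface protease with a cysteine-rich array, fell in shLuc cells. No gene of these families was called between shSix4 and shLuc cells in the fit of all 12 arrays without the slide block. In shLuc cells MyoD raised 2 and lowered 1 of the 27 genes (11.1%), against 6.28% of all genes called, 4.72% higher and 1.56% lower. With the slide as a block the count was 2 higher and 6 lower (29.6%), against 25.6% of all genes, 9.89% higher and 15.7% lower. In shSix4 cells it was 1 higher and 0 lower (3.7%), against 2.89% of all genes, 2.79% higher and 0.106% lower. The block gave 3 higher and 2 lower there (18.5%), against 8.3% of all genes, 5.7% higher and 2.6% lower. The groups did not overlap for 11 of the 27 genes in shLuc cells, against 26.2% of all genes, and for 7 in shSix4 cells, against 14.5%. The MyoD comparisons use different arrays in the 2 lines, whereas each of them shares arrays with the comparisons between lines.

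**Figure D1:**
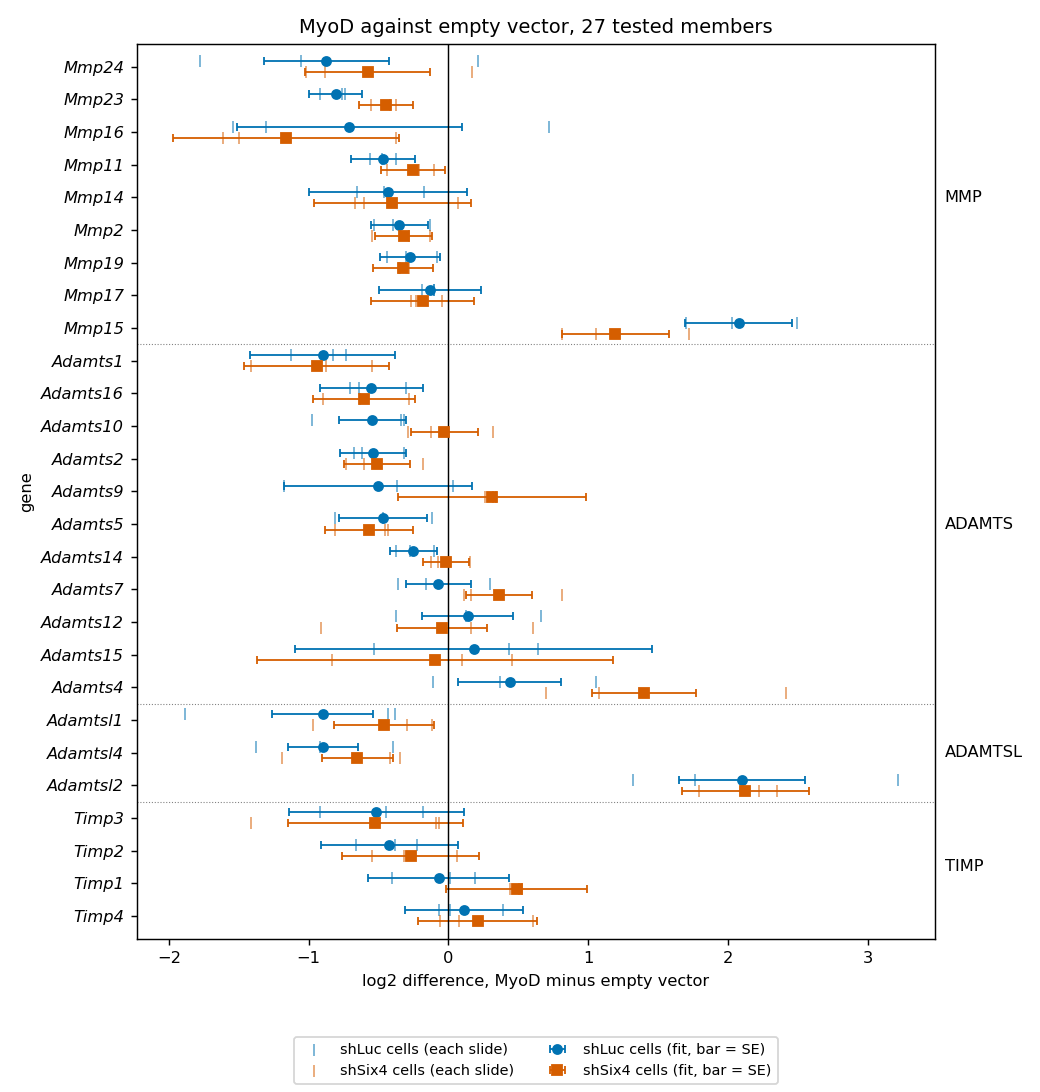
The log2 difference between MyoD and empty vector (horizontal axis) is drawn for each of the 27 tested genes in shLuc (blue circles) and shSix4 cells (orange squares), with limma SE as bars and the difference within each of the 3 slides as ticks. Adamtsl2 and Mmp15 lie to the right of 0 on every slide in both lines, and most other genes lie to the left of 0.

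Including the called genes, 21 of the 27 differences were below 0 in shLuc cells and 20 in shSix4 cells. Their median was -0.43 in shLuc cells and -0.27 in shSix4 cells. Over all 12300 genes the median was -0.14 in shLuc cells, with 64.9% of genes below 0, and -0.06 in shSix4 cells, with 58%. Set against the median of all genes, 18 of the 27 lay lower in shLuc cells and 17 in shSix4 cells. The 10 fibroblast markers had medians of -0.53 and -0.14, with 0 called without the block in either line, and with it 5 lower in shLuc cells and 0 in shSix4 cells. The fibroblast markers' summed level (log2) was 10.38 to 11.27 in shLuc cells with vector, 10.34 to 10.6 with MyoD, 10.56 to 10.76 in shSix4 cells with vector and 10.34 to 10.79 with MyoD, and its part in the differences was not tested.

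Among the membrane-type MMPs, Mmp15 moved most. In shLuc cells its level was -2.98, -3.38 and -3.58 with empty vector and -0.48, -1.68 and -1.55 with MyoD on slides 1, 2 and 3. All 3 MyoD arrays lay above all 3 vector arrays. The difference was 2.08 ± 0.38, a 4.22-fold rise (adjusted p 0.00657, with the slide block 8.85e-05), and 2.50, 1.70 and 2.03 within the slides. In shSix4 cells the level was -2.79, -3.32 and -2.99 with vector and -1.07, -2.27 and -2.18 with MyoD. These groups did not overlap either, and the difference of 1.19 ± 0.38 passed the threshold only with the slide block (adjusted p 0.193 without it, 0.00517 with it). Without slide 1, a setting chosen after seeing the data, Mmp15 was called in both lines, at 1.87 in shLuc cells and 0.93 in shSix4 cells (adjusted p 0.000777 and 0.0379). The 250 bases before the annotated start of Mmp15 (chr8:95352046-95352295, plus strand, GRCm38.p6, from RefSeq) are shown because this gene rose with MyoD, a factor that binds E-boxes, CANNTG. The capitals mark its 2 E-boxes, both CACCTG, whose first bases lie 161 and 137 bases before the start. At least 2 E-boxes were found in 31.8% of the same windows of 27018 genes.
Mmp15: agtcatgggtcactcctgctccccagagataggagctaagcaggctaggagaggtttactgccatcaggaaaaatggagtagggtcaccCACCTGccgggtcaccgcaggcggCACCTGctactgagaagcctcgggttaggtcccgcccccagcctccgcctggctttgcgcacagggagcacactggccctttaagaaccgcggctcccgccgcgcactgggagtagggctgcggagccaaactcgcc

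Mmp23 moved the other way. In shLuc cells it stood at -2.25, -2.82 and -2.67 with vector and at -3.17, -3.57 and -3.44 with MyoD. The groups did not overlap, and Mmp23 fell by 0.81 ± 0.19 (SE), 1.75-fold (adjusted p 0.0286, with the block 0.00311), with -0.92, -0.74 and -0.76 within the slides. In shSix4 cells the levels were -2.80, -3.00 and -2.78 with vector and -3.35, -3.37 and -3.19 with MyoD. The difference of -0.45 ± 0.19 did not pass the threshold (adjusted p 0.452, with the block 0.0799), though the groups did not overlap. In shLuc cells the call was lost without vector replicate 1 (adjusted p 0.11) or 3 (0.0609), or without MyoD replicate 2 (0.106) or 3 (0.105), with no filter on dim probes (0.0623), with only the compared groups in the fit (0.111) and with normexp background correction (-0.60). The bases before the first listed start of Mmp23 (chr4:155653385-155653634, minus strand, GRCm38.p6, RefSeq) are given for contrast, since Mmp23 was the gene called lower. Its E-boxes, in capitals, are CAAATG and CAATTG, 148 and 111 bases before the start.
Mmp23: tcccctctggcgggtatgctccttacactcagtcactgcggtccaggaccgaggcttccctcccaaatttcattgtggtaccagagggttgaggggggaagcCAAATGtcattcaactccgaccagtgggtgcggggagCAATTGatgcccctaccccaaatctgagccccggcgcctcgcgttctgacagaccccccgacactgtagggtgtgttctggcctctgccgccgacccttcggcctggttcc

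**Figure D2:**
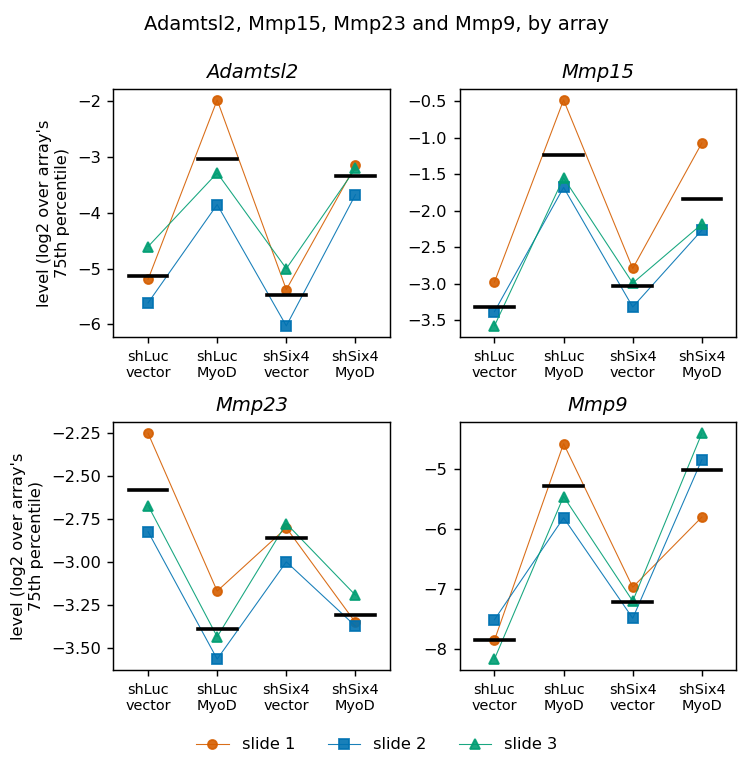
The level of Adamtsl2, Mmp15, Mmp23 and Mmp9 (log2 of the signal over the array's 75th percentile, each gene on its own scale) is shown on every array, with a line joining the arrays of a slide and a bar at the group mean. With MyoD the 3 arrays lie above those with vector for Adamtsl2, Mmp15 and Mmp9 in both lines and below them for Mmp23.

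Mmp14, the RNA of MT1-MMP, which activates pro-MMP2 at the cell surface, was not called. It stood at 6.29, 7.42 and 6.84 with vector and 5.63, 6.96 and 6.67 with MyoD in shLuc cells, and at 5.91, 7.31 and 7.10 with vector and 5.31, 7.38 and 6.43 with MyoD in shSix4 cells. The groups overlapped, and slide 1 was the lowest in each of them. The MyoD difference was -0.43 ± 0.56 in shLuc cells (adjusted p 0.752, with the block 0.119) and -0.40 ± 0.56 in shSix4 cells (0.986, with the block 0.231). A second Mmp14 probe gave -0.41 and -0.51. The other membrane-type members, Mmp16, Mmp17 and Mmp24, had differences between -0.88 and -0.13 in shLuc cells and between -1.16 and -0.18 in shSix4 cells. None was called with or without the block. The -0.88 is that of Mmp24, which entered the test only through the shLuc vector arrays, above background on 3 of 3, against 1 of 3 with MyoD.

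Of the gelatinases, Mmp2 was above background on all 12 arrays and Mmp9 on 4. Mmp2 stood at 4.59, 4.61 and 4.63 with vector and 4.05, 4.48 and 4.23 with MyoD in shLuc cells. All MyoD arrays lay below all vector arrays, and the difference of -0.35 ± 0.20 did not pass the threshold (adjusted p 0.397, with the block 0.0871). In shSix4 cells it stood at 4.45, 4.83 and 4.99 with vector and 4.16, 4.70 and 4.44 with MyoD, which overlap, at -0.32 ± 0.20 (adjusted p 0.767, with the block 0.193).

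Mmp9, gelatinase B, was well above background on 0 of 3 vector arrays and on 2 of 3 MyoD arrays in each line, and was thus not among the 12300 genes. It is singled out here after its values were seen. In shLuc cells it read -7.86, -7.51 and -8.17 with vector and -4.58, -5.81 and -5.46 with MyoD. The shSix4 arrays gave -6.97, -7.49 and -7.20 with vector and -5.80, -4.84 and -4.40 with MyoD. The groups did not overlap in either line. As the vector groups were not well above background, each vector array was given its detection limit unless Mmp9 itself was brighter. That limit is the dimmest signal still marked well above background. So set, Mmp9 was 1.6-fold higher with MyoD in shLuc cells and 1.29-fold in shSix4 cells. As only 2 of 3 MyoD arrays in each line were above background, these folds are not strict lower limits. The measured means for vector and MyoD were -7.85 and -5.28 with the control hairpin and -7.22 and -5.01 with the Six4 hairpin. In the fit with no filter on dim probes, over 17178 genes, Mmp9 passed the threshold in both lines (adjusted p 0.00358 in shLuc and 0.0161 in shSix4 cells, with the block 0.00834 and 0.0313). Over all arrays, 8 spots of the Mmp9 probe in this fit were marked as outliers and left out. A second probe read -7.59, -7.28 and -8.00 with vector and -4.92, -5.65 and -5.58 with MyoD in shLuc cells. In shSix4 cells that probe read -6.76, -7.57 and -7.69 with vector and -6.70, -5.58 and -4.85 with MyoD, where slide 1 hardly differed. Leukocyte and endothelial markers, cells that also make MMP9, had a summed level (log2) of -0.18 to 0.20 with vector and -0.57 to -0.49 with MyoD in shLuc cells. In shSix4 cells it was 0.43 to 0.48 with vector and -0.02 to 0.21 with MyoD. Signals were summed before log2 was taken, so this sum mostly follows Cd14, which read -1.07 to 0.25. No other marker read above -1.97. Of the 4 markers tested, 1 rose, Vwf, by 1.50 ± 0.36 with the control hairpin (adjusted p 0.0298). Vwf entered the test only through the MyoD arrays of that line, 3 of 3 above background against 2 of 3 with vector. With the Six4 hairpin Vwf was also called higher (adjusted p 0.00827), from 0 of 3 vector to 2 of 3 MyoD arrays above background, so no size is given. With the block, Tek was lower in both lines, at -1.12 ± 0.59 and -1.25 ± 0.59 (with the block 0.0163 and 0.0213), and Cd14 in shLuc cells, at -0.69 ± 0.20 (0.0085). Csf1r, which also entered the test only through MyoD arrays, was not called in shLuc cells (adjusted p 0.933, with the block 0.837). In shSix4 cells Csf1r was above background on 0 of 3 vector and 3 of 3 MyoD arrays, and was not called (0.417, with the block 0.0875). The part of these markers in the Mmp9 values was not tested.

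Among the other secreted MMPs, only Mmp11, stromelysin-3, and Mmp19 were tested. Mmp11 differed by -0.47 ± 0.23 with MyoD in shLuc cells (adjusted p 0.296), where its groups did not overlap, and by -0.25 ± 0.23 in shSix4 cells (0.923). Mmp19 differed by -0.28 ± 0.21 and -0.33 ± 0.21, with adjusted p 0.545 and 0.787. Mmp7, matrilysin, was above background on 0 of 3 vector and 2 of 3 MyoD arrays of shLuc cells. With the vector arrays set as for Mmp9 it was 1.84-fold higher with MyoD. It did not pass the threshold in the fit with no filter (adjusted p 0.381). The measured means of Mmp7 were -6.75 and -5.03 for vector and MyoD in shLuc cells. In shSix4 cells Mmp7 was above background on 1 of 3 vector and 2 of 3 MyoD arrays, with -1.31, 1.88 and 0.95 within slides 1, 2 and 3. Mmp10, stromelysin-2, was above background on 2 of 3 vector and 0 of 3 MyoD arrays of shLuc cells. With its MyoD arrays set as the vector arrays of Mmp9 were, it was 1.24-fold lower with MyoD (measured means -5.34 and -6.18). Mmp10 did not pass either (adjusted p 0.589). In shSix4 cells it was above background on 0 of 3 vector and 1 of 3 MyoD arrays, and the measured means went the other way, -5.945 with vector and -5.747 with MyoD. The folds of Mmp7 and Mmp10 are not strict lower limits, for the same reason as those of Mmp9.

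The ADAMTS proteoglycanases gave calls only with the slide block. Adamts1, which cuts versican and aggrecan, stood at 5.74, 6.73 and 6.26 with vector and 4.61, 5.99 and 5.43 with MyoD in shLuc cells. The shSix4 values were 5.59, 6.72 and 6.08 with vector and 4.17, 6.17 and 5.21 with MyoD. On every slide the MyoD array was the lower one, while the groups overlapped because slide 1 was the lowest and slide 2 the highest in each. The difference was -0.90 ± 0.52 in shLuc and -0.94 ± 0.52 in shSix4 cells, not called without the block (adjusted p 0.397 and 0.668) and called with it (0.00704 and 0.0109). A second Adamts1 probe gave -1.12 and -1.24.

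Adamts5, the main aggrecanase of mouse cartilage, followed the same order. It stood at 5.63, 5.76 and 6.13 with vector and 4.82, 5.65 and 5.66 with MyoD in shLuc cells, and at 5.55, 6.01 and 6.14 with vector and 4.74, 5.56 and 5.71 with MyoD in shSix4 cells. The MyoD array was lower on each slide of both lines and the groups overlapped. The differences were -0.47 ± 0.32 and -0.57 ± 0.32, with adjusted p 0.475 and 0.673 without the block and 0.0457 and 0.0482 with it.

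Adamts4, another aggrecanase, had a positive difference in both lines. It stood at -0.53, -0.14 and 0.00 with vector and 0.53, -0.25 and 0.36 with MyoD in shLuc cells, which overlap, at 0.44 ± 0.37 (adjusted p 0.591, with the block 0.352). In shSix4 cells it stood at -1.74, -0.54 and -0.27 with vector and 0.68, 0.16 and 0.81 with MyoD. Those groups did not overlap, and the difference of 1.40 ± 0.37, 2.64-fold, passed only with the block (adjusted p 0.0874 without it, 0.0315 with it). Slide 1 gave 2.42 there, against 0.70 and 1.08 on slides 2 and 3.

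Adamts9 and Adamts15, which also act on versican, were not called either, and slide 1 stood apart. Adamts9 read -2.04, -2.13 and -1.77 with vector and -3.21, -2.09 and -2.13 with MyoD in shLuc cells, and -4.54, -2.54 and -2.30 with vector and -4.28, -2.22 and -1.96 with MyoD in shSix4 cells. Its MyoD differences were -0.50 ± 0.67 and 0.31 ± 0.67, and neither passed with or without the block. Adamts15 read -4.28, -3.37 and -3.04 with vector and -4.81, -2.73 and -2.61 with MyoD in shLuc cells. The shSix4 arrays gave -6.93, -2.87 and -2.08 with vector and -6.47, -2.77 and -2.92 with MyoD, and 2 of 3 arrays of each of these groups were above background. Its differences were 0.18 ± 1.28 and -0.10 ± 1.28.

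Adamts2, the procollagen N-proteinase that trims fibrillar procollagens, stood at 4.15, 4.46 and 3.97 with vector and 3.47, 3.83 and 3.65 with MyoD in shLuc cells. The groups did not overlap, and the difference of -0.54 ± 0.24 was called only with the block (adjusted p 0.24 without it, 0.0248 with it). The shSix4 values were 4.47, 4.78 and 4.66 with vector and 3.73, 4.59 and 4.05 with MyoD, at -0.51 ± 0.24 (adjusted p 0.53, with the block 0.0643). A second Adamts2 probe gave -0.63 and -0.57. Adamts14, of the same procollagen group, differed by -0.25 ± 0.16 and -0.02 ± 0.16 and was not called. The remaining ADAMTS genes, Adamts7, Adamts10, Adamts12 and Adamts16, lay between -0.55 and 0.14 in shLuc and between -0.60 and 0.36 in shSix4 cells, with 0 of 4 called with or without the block.

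All 3 ADAMTS-like genes had non-overlapping MyoD and vector groups in both lines, against 26.2% of all genes in shLuc and 14.5% in shSix4 cells. Adamtsl2 was higher with MyoD, and Adamtsl1 and Adamtsl4 were lower. For Adamtsl1 in shSix4 cells the closest arrays read -4.789 with vector and -4.793 with MyoD. Adamtsl2, whose protein binds fibrillin and latent TGF-beta binding protein and is mutated in geleophysic dysplasia, read -5.20, -5.62 and -4.61 with vector and -1.98, -3.85 and -3.29 with MyoD in shLuc cells. In shSix4 cells it read -5.38, -6.03 and -5.00 with vector and -3.15, -3.68 and -3.21 with MyoD. It rose by 2.10 ± 0.45 in shLuc cells (adjusted p 0.0181, with the block 0.00171) and by 2.12 ± 0.45 in shSix4 cells (adjusted p 0.0277, with the block 0.00283). Adamtsl2 entered the test only through the MyoD groups, where it was above background on 3 of 3 arrays, against 2 of 3 vector arrays of shLuc and 1 of 3 of shSix4 cells, so no fold is given. In the fit with no filter the adjusted p was 0.0321 in shLuc cells and 0.0503, not called, in shSix4 cells. Slides 1, 2 and 3 taken singly gave 3.22, 1.76 and 1.32 for shLuc and 2.23, 2.35 and 1.80 for shSix4. The call was lost without some single arrays. It was lost in shLuc cells without vector replicate 1 or 2 (adjusted p 0.0634 and 0.0869) and with only the compared groups in the fit (0.0529). With the shSix4 hairpin the call was lost without vector replicate 1 or 2 (0.0643 and 0.13) or MyoD replicate 1 or 3 (0.109 for each). Without slide 1 the rise was 1.54 and 2.07, with adjusted p 0.0821 and 0.0546. With normexp background correction the differences were 0.54 and 0.39 and were not called. The bases before the start of Adamtsl2 (chr2:27079129-27079378, plus strand, GRCm38.p6, RefSeq) are shown because, without the block, only Adamtsl2 was called in both lines. With the block, Adamts1, Adamts5 and Mmp15 were called in both lines as well. The capitals mark its 2 CAGCTG E-boxes, of the kind MyoD prefers, whose first bases lie 158 and 22 bases before the start. A TATAAA box begins 30 bases before it.
Adamtsl2: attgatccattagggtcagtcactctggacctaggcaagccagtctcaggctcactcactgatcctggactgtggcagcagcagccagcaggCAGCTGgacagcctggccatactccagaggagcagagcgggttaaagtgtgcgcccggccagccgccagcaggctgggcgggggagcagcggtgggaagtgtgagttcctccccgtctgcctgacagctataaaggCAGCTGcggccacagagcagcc

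Adamtsl4, which encodes a fibrillin-binding protein of the lens zonule, read -0.56, -0.86 and -0.52 with vector and -1.94, -1.26 and -1.44 with MyoD in shLuc cells. The difference was -0.90 ± 0.25 (adjusted p 0.0652), called with the block (0.0154), with quantile normalization (-0.90, adjusted p 0.0488) and with plain background subtraction (-0.998, adjusted p 0.0353). The shSix4 arrays gave 0.27, 0.35 and 0.13 with vector and -0.92, -0.06 and -0.22 with MyoD, at -0.65 ± 0.25 (adjusted p 0.358, with the block 0.0987). Adamtsl1, punctin-1, read -3.75, -4.25 and -3.83 with vector and -5.63, -4.63 and -4.27 with MyoD in shLuc cells. Its difference of -0.90 ± 0.36 was called only with the block (adjusted p 0.196 without it, 0.0492 with it), and slide 1 gave -1.88 against -0.38 and -0.43 on the other slides. Adamtsl1 entered the test only through the shLuc vector arrays, above background on 3 of 3, against 2 of 3 in each other group. In shSix4 cells Adamtsl1 read -4.79, -4.49 and -4.69 with vector and -5.76, -4.79 and -4.80 with MyoD, at -0.46 ± 0.36 (adjusted p 0.861).

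None of the 4 TIMP genes was called for MyoD in either line, with or without the block, and their groups overlapped in both lines. Timp1, a secreted inhibitor of most soluble MMPs, stood at 5.29, 4.91 and 4.40 with vector and 5.30, 4.51 and 4.59 with MyoD in shLuc cells, a difference of -0.07 ± 0.51. The shSix4 values were 6.14, 4.53 and 4.74 with vector and 6.64, 5.05 and 5.18 with MyoD. There the MyoD array was higher on each slide, by 0.51, 0.52 and 0.44, and the difference of 0.49 ± 0.51 did not pass (adjusted p 0.946, with the block 0.235). Timp2, the inhibitor that with MT1-MMP takes part in pro-MMP2 activation, stood at 7.57, 8.93 and 8.14 with vector and 7.19, 8.27 and 7.91 with MyoD in shLuc cells. It stood at 7.27, 8.49 and 8.10 with vector and 6.95, 8.55 and 7.55 with MyoD in shSix4 cells. Its differences were -0.42 ± 0.49 (adjusted p 0.712, with the block 0.0576) and -0.27 ± 0.49 (0.997, with the block 0.294).

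Timp3, the matrix-bound TIMP that also inhibits ADAMTS4 and ADAMTS5, stood at 6.38, 7.33 and 6.81 with vector and 5.45, 7.15 and 6.36 with MyoD in shLuc cells. In shSix4 cells it stood at 6.62, 7.74 and 7.45 with vector and 5.21, 7.65 and 7.38 with MyoD. The differences were -0.52 ± 0.63 and -0.52 ± 0.63 (adjusted p 0.731 and 0.962). In shSix4 cells slide 1 gave -1.41 while slides 2 and 3 gave -0.09 and -0.07. Timp4 read -4.29, -4.44 and -3.47 with vector and -3.90, -4.50 and -3.46 with MyoD in shLuc cells, and -4.00, -4.99 and -3.53 with vector and -4.06, -4.38 and -3.45 with MyoD in shSix4 cells. It differed by 0.11 ± 0.42 and 0.21 ± 0.42, less than the spread within each group.

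**Figure D3:**
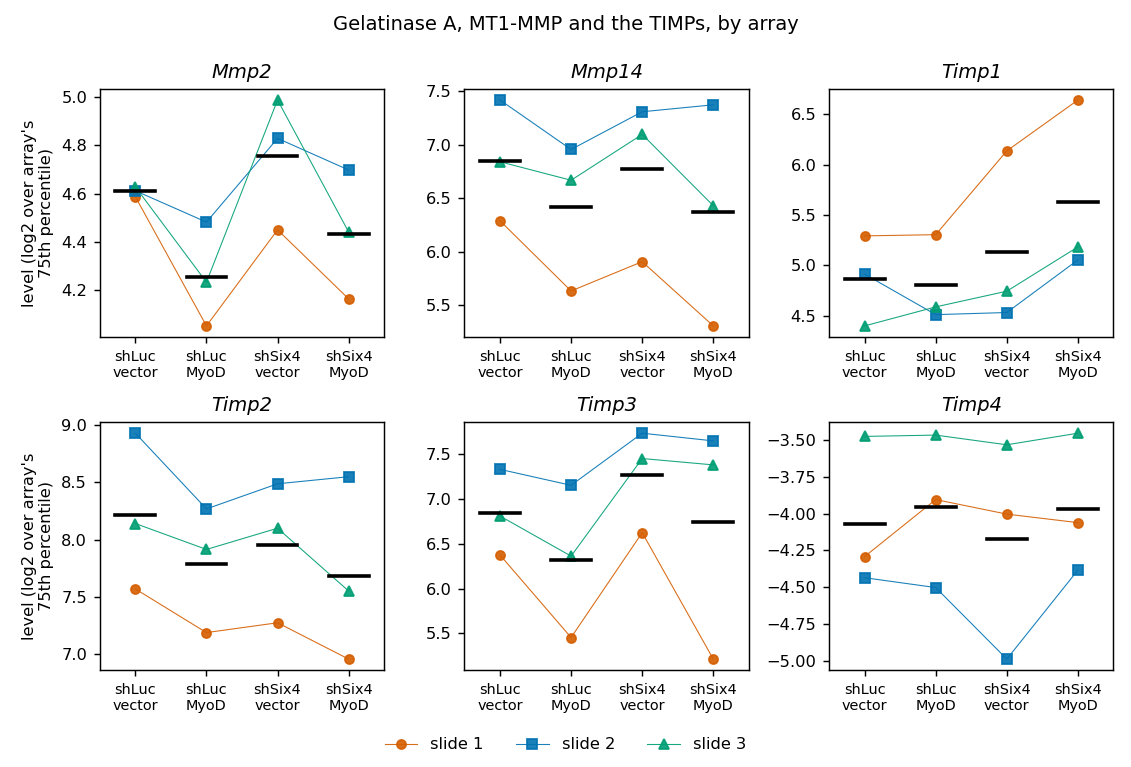
Levels of Mmp2, Mmp14 and Timp1 to Timp4 (log2 of the signal over the array's 75th percentile, each gene on its own scale) are shown on all 12 arrays, with a line joining the arrays of a slide and a bar at the group mean. In every group slide 1 is the lowest for Mmp2, Mmp14, Timp2 and Timp3 and the highest for Timp1.

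Proteases and inhibitors were set side by side by the median of their MyoD differences. In shLuc cells the 9 MMP genes had a median of -0.43, with 8 below 0, the 11 ADAMTS genes -0.47, with 8 below 0, and the 4 TIMP genes -0.25, with 3 below 0, against -0.14 for all genes. In shSix4 cells the medians were -0.33 for MMP, with 8 of 9 below 0, -0.05 for ADAMTS, with 8 of 11 below 0, and -0.03 for TIMP genes, with 2 of 4 below 0, against -0.06 for all genes. Under quantile normalization the MMP medians were -0.36 and -0.30, the ADAMTS medians -0.44 and -0.01 and the TIMP medians -0.15 and -0.01, so these stayed on the same side of 0. The shSix4 medians depended on other settings. There the ADAMTS median was -0.29 with normexp, -0.10 with plain subtraction and -0.37 without slide 1, where the MMP median was -0.31. The TIMP median there was -0.25 with normexp and -0.18 with plain subtraction, and turned to 0.13 without slide 1. Within slides 1, 2 and 3 of shLuc cells the MMP median was -0.37, -0.19 and -0.44 and the TIMP median -0.18, -0.29 and -0.11. Within those of shSix4 cells the MMP median was -0.35, -0.11 and -0.42 and the TIMP median -0.19, 0.29 and 0.00. These medians are a description without a test.

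The hairpin comparisons ask how cells with less Six4 RNA by design differ from control cells. With empty vector 0 of the 27 genes were called, against 0.0569% of all genes (0.00813% higher, 0.0488% lower), and with the slide block 0 against 0.642% (0.146% higher, 0.496% lower). At an unadjusted limma p under 0.05 there was 1 of the 27, Adamtsl4, against 547 of all 12300 genes. With MyoD 0 of the 27 were called, against 0.228% of all genes (0.065% higher, 0.163% lower). With the block 1 was called, Adamtsl4 (3.7%), against 4.33% (1.75% higher, 2.59% lower). Adamtsl4 was again the 1 gene of the 27 at an unadjusted limma p under 0.05, against 960 of all 12300 genes. The groups did not overlap for 5 of the 27 genes with vector, against 8.33% of all genes, and for 3 with MyoD, against 12%.

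Adamtsl4 was the gene with the clearest line difference. It was higher in shSix4 than in shLuc cells on all 3 slides, by 0.83, 1.21 and 0.65 with vector and by 1.02, 1.19 and 1.22 with MyoD. The groups did not overlap with either virus. The difference was 0.90 ± 0.25 with vector (adjusted p 0.545, with the block 0.0987) and 1.14 ± 0.25, 2.21-fold, with MyoD, which was called with the block (adjusted p 0.11 without it, 0.0209 with it) and without slide 1 (1.21, adjusted p 0.0316). Both comparisons contain arrays that also enter the MyoD differences of Adamtsl4.

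Timp1 was higher in shSix4 cells with MyoD on all 3 slides, by 1.34, 0.55 and 0.60, though the groups overlapped. The difference was 0.83 ± 0.51 (adjusted p 0.87, with the block 0.0798), and a second Timp1 probe gave 1.01. With vector it was 0.27 ± 0.51, and slide 2 went the other way at -0.38. Adamts2 was higher in shSix4 cells on all slides with either virus, at 0.44 ± 0.24 with vector (adjusted p 0.999) and 0.47 ± 0.24 with MyoD (0.736), not called with the block either. Adamts9 had the largest size with vector, -1.15 ± 0.67 (adjusted p 0.999, with the block 0.221), of which slide 1 gave -2.50 and slides 2 and 3 gave -0.42 and -0.54. Timp2, Timp3 and Timp4 differed by -0.26 ± 0.49, 0.43 ± 0.63 and -0.11 ± 0.42 with vector and by -0.10 ± 0.49, 0.42 ± 0.63 and -0.01 ± 0.42 with MyoD. For Mmp2 and Mmp14 the line difference was 0.15 ± 0.20 and -0.08 ± 0.56 with vector and 0.18 ± 0.20 and -0.05 ± 0.56 with MyoD. The 95% limma intervals of these differences with MyoD ran from -0.27 to 0.63 for Mmp2 and from -1.29 to 1.20 for Mmp14.

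**Figure D4:**
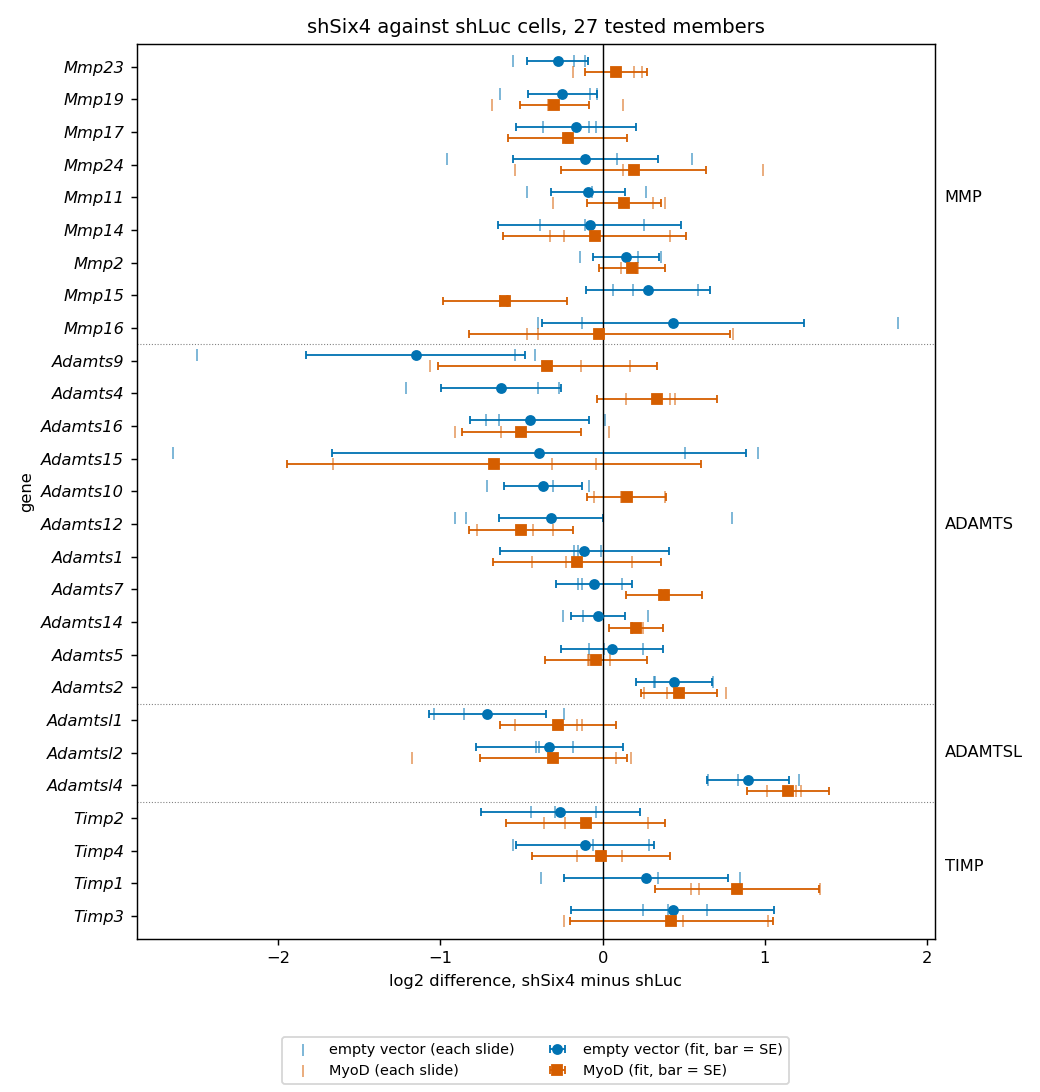
The log2 difference between shSix4 and shLuc cells (horizontal axis) is drawn for the 27 tested genes with empty vector (blue circles) and with MyoD (orange squares), with limma SE as bars and the difference within each slide as ticks. Adamtsl4 lies to the right of 0 on all 3 slides with both viruses, while Adamts4 and Mmp15 lie on opposite sides of 0 with vector and with MyoD.

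Whether the MyoD response itself differed between the lines was tested directly as the interaction. None of the 27 genes was called, against 0% of all genes, with or without the block, and at an unadjusted limma p under 0.05 there were 0 of the 27 and 249 of all genes. The largest sizes were those of Adamts4, 0.96 ± 0.53 higher in shSix4 cells (adjusted p 1, with the block 0.823), and Mmp15, -0.88 ± 0.54 (adjusted p 1, with the block 0.59). Mmp15 was below 0 on all 3 slides, at -0.78, -0.65 and -1.22, and Adamts4 above 0 on all 3, at 1.36, 0.81 and 0.71. For Adamtsl2 the interaction was 0.02 ± 0.64, with a 95% interval from -1.39 to 1.44, so these arrays leave room for a difference of that size.

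Many of these genes differed between slides in every group. Slide 1 was the lowest of the 3 slides in all 4 groups for 9 of the 27 genes (33.3%, against 19.6% of all genes): Adamts1, Adamts5, Adamts7, Adamts15, Adamts16, Mmp2, Mmp14, Timp2 and Timp3. It was the highest in all 4 groups for 3 genes (11.1%, against 26.3%): Mmp15, Mmp17 and Timp1. On average over the groups, slide 1 differed from slides 2 and 3 by -2.82 for Adamts15, -1.32 for Timp3, -1.23 for Mmp14, -1.05 for Adamts1, -0.998 for Timp2, 0.79 for Mmp15 and 1.11 for Timp1. The residual SD of the 27 genes had a median of 0.49 without the block and 0.24 with it, against 0.36 and 0.20 over all genes. Every slide held 1 array of each of the 4 groups.

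**Figure D5:**
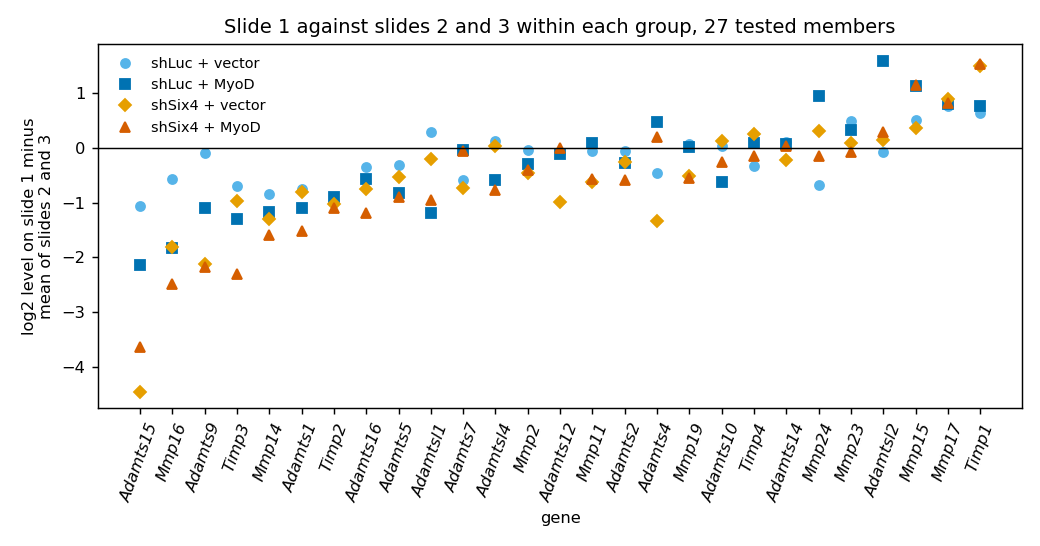
For each of the 27 tested genes, the level on slide 1 minus the mean of slides 2 and 3 (log2, vertical axis) is drawn within each of the 4 groups. Adamts15, Timp3, Mmp14, Adamts1 and Timp2 lie below 0 in all 4 groups, while Mmp17, Mmp15 and Timp1 lie above 0 in all 4.

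RefSeq windows of 250 bases before the start (GRCm38.p6) were at hand for 16 of the 27 genes and searched on both strands, and the same search was run on the first window of 27018 genes. CAGCTG was found in 6 of the 16 windows, those of Adamts2, Adamts9, Adamts12, Adamtsl2, Timp2 and Timp4, against 12.8% of all windows, and at least 2 copies in those of Adamts2 and Adamtsl2, against 1.16%. Any E-box, CANNTG, of which CAGCTG is 1 form, was in 10 of the 16, against 66.1%, and at least 2 copies in 6 of the 16, against 31.8%. The GC box GGGCGG was in 13 of 16, against 32.9%, and TATAAA in 2, Adamts1 and Adamtsl2, against 13%. The AP-1 site TGANTCA, known from several MMP promoters, was in 0 of the 16 windows, against 6.87%. TCAGGTT, the core of the MEF3 element that Six4 and its relatives bind, was in 1, Timp1, against 3.49%. These are matches of letters. The 27018 genes, unlike the 16, were not limited to tested genes, and shares among tested genes alone were not computed. Of the genes with CAGCTG only Adamtsl2 was called for MyoD without the block, and Mmp15 was called without that motif in its window.

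Genes that act beside these families were counted from lists, to be read against 4.72% of all genes higher and 1.56% lower for MyoD in shLuc cells, and 2.79% higher and 0.106% lower for shSix4. With the block the shares were 9.89% higher and 15.7% lower for shLuc, and 5.7% higher and 2.6% lower for shSix4. Of 9 tested ADAM genes, membrane proteases of the same metalloproteinase clan, MyoD raised 2 in shLuc cells and 1 in shSix4 cells. Adam8 rose by 3.38 ± 0.34 (adjusted p 8.67e-05) and 3.14 ± 0.34 (0.000245). Adam12, known from myoblast fusion and regenerating muscle, rose by 3.10 ± 0.56 in shLuc cells (adjusted p 0.00601), and its 1.70 ± 0.56 in shSix4 cells passed only with the block (adjusted p 0.219 without it, 0.011 with it). Both differences were larger than that of any MMP, ADAMTS or TIMP gene tested in shLuc cells. The median of the 9 ADAM genes was -0.27 and -0.03.

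Of 16 other matrix-modifying enzymes and their helpers, 1 fell in shLuc cells, the serine protease Htra1, by 0.92 ± 0.21 (adjusted p 0.0273), and 0 were called in shSix4 cells. Of 13 tested proteoglycans and other matrix substrates, 1 fell in shLuc cells, Ncan (neurocan), by 0.89 ± 0.23 (adjusted p 0.0458), and 7 were lower with the block, against 15.7% of all genes. The last group included versican, Vcan, a substrate of Adamts1 and Adamts5, at -0.93 ± 0.55 (adjusted p 0.413, with the block 0.00362). In shSix4 cells 0 of the 13 were called with or without the block. Of 9 plasminogen-system genes 0 were called for MyoD in either line without the block.

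Among 6 tested metalloprotease inhibitors other than TIMPs, 0 were called without the block in either line. With it, 2 were higher and 1 lower in shLuc cells, and the lower one was Reck, the membrane-anchored MMP inhibitor, at -0.99 ± 0.56 (adjusted p 0.387, with the block 0.0123). The others were the cystatin Cst6, at 1.04 ± 0.64 (with the block 0.00535), and Thbs1, at 0.82 ± 0.31 (with the block 0.0463), and these 2 were also higher with the block in shSix4 cells. Of 15 AP-1, ETS and related regulators of protease genes, Junb rose by 0.78 ± 0.20 (adjusted p 0.0412) and Ets1 fell by 0.78 ± 0.20 (adjusted p 0.0478) in shLuc cells, and 0 were called in shSix4 cells. Between the lines, 0 genes of these 6 lists were called without the block with either virus. With the block, 2 were lower in shSix4 cells with vector, Htra3 and Lum (lumican, -1.99 ± 0.50, with the block 0.0224), against 0.496% of all genes. With MyoD, Htra3, Fap and Lum were lower with the block and Plaur, Plat, Adam23, Cst6 and Fosl1 higher, against 2.59% and 1.75% of all genes. The largest of these sizes were -1.88 ± 0.52 for the serine protease Fap (with the block 0.0182) and 1.56 ± 0.64 for Cst6 (0.0084). Htra3, a matrix-bound serine protease, was lower in shSix4 cells with vector, at -1.59 ± 0.29 (adjusted p 0.164, with the block 0.0274), and with MyoD, at -1.30 ± 0.29 (0.107, with the block 0.0209).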

How the data were processed

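Each deposited scanner file holds 1 array's Cy3 intensity per spot, read out by Agilent Feature Extraction (11.5.1.1 in the headers, 10.5.1.1 in the submitters' processing notes). The processed signal is background-corrected and not normalized between arrays, per the file headers. A deposited series table of log2 values, normalized by the authors in a way that is not stated, served only as an alternative. The copy used here held 3867 of the probes and 8 of the tested members. Samples were grouped by title; the description field names another cell line and stages and was not used.

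Control and outlier-marked spots were left out, spots of a probe averaged (41174 probes), log2 taken and each array's 75th percentile subtracted. No spot was saturated. A probe was kept if well above background throughout 1 or more groups (24000). Genes were named through RefSeq accessions and a RefSeq table (GRCm38.p6, for names only; 24820 of 25268 mRNA-accession probes matched), taking the probe with the highest mean. limma 3.58.1 in R 4.3.3 fitted group means over 12 arrays (8 residual degrees of freedom), with 5 comparisons, and was tested on simulated data. Same-numbered arrays share a slide, per the file headers, and their deviations from the group means correlated at r 0.276 to 0.819 (18 pairs; different slides -0.734 to 0.495), so the numbers pair the samples and the block result is given beside each call it changes.

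The members and lists were chosen with earlier results of these data known. Genes given by array are those called in any comparison with or without the block, Timp1 to Timp4, Mmp2, Mmp14, and the 3 largest changes per comparison; Mmp9, Mmp7 and Mmp10 were added after their values were seen. Alternatives were other background corrections (normexp and plain subtraction on median signals, as mean signals were not at hand), quantile normalization, other filters and probe rules, the block, fewer groups in the fit, the authors' table, each array left out, and, chosen after seeing the data, slide 1 left out and no filter with the block. The number of arrays limits the precision.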

Additional observations from a re-analysis of the deposited data

Results flagged for a closer look

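For 2 genes the difference between the lines ran one way on every slide with empty vector and the other way on every slide with MyoD. Adamts4 was lower in shSix4 cells with vector, by -1.21, -0.40 and -0.27 on slides 1, 2 and 3, and higher with MyoD, by 0.15, 0.42 and 0.45. The test of this difference is the interaction, 0.96 ± 0.53 (limma adjusted p 1, with the slide block 0.823), which it did not pass. Mmp15 was higher in shSix4 cells with vector, by 0.19, 0.06 and 0.59, and lower with MyoD, by -0.59, -0.58 and -0.63. Its interaction was -0.88 ± 0.54 (adjusted p 1, with the block 0.59), which did not pass either.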

How the results depend on the processing

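Of the calls among the 27 genes, Mmp15 in shLuc cells held in 22 of 23 alternatives and was lost with normexp correction (0.96, limma adjusted p 1). Over the named genes, comparisons and alternatives together, 19 of 1953 values came to pass the threshold and 20 ceased to. The sign changed in 152, of which 0 were called in either fit. With MyoD in shLuc cells 3 of the 27 genes passed, against 0 with normexp, 1 with only the compared groups in the fit and 1 to 4 with 1 array left out. In shSix4 cells 1 passed, against 0 with normexp, 0 with probes above background on all arrays and 0 to 1 with 1 array left out. Between the lines with MyoD 0 passed, against 1 without slide 1 (Adamtsl4).

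The slide as a replicate block, which pairs the samples, gave 8, 5 and 1 of the 27 genes in these comparisons, and 3153, 1021, 79 and 533 of all genes for MyoD in shLuc cells, MyoD in shSix4 cells, and the lines with vector and with MyoD. It changed no call among the 27 genes beyond those named. The block with no filter, chosen after seeing the data as was leaving out slide 1, gave 6 and 4 of the members for MyoD, and 2181, 598, 20 and 191 of all genes.

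Without the block, 772, 356, 7 and 28 of all genes passed in that order. Normexp gave 86, 49, 0 and 0, and probes above background on all arrays 457, 154, 4 and 6. The authors' table, over 2638 genes, gave 157, 51 and 3, and 1 for the interaction, where 0 passed otherwise. With only the compared groups, 227 passed for MyoD in shSix4 cells and 0 between the lines with either virus. Between the lines with vector, plain subtraction gave 0, quantile 4 and no filter 2, and with MyoD no filter gave 2 and the mean of a gene's probes 50. Without slide 1 the lines differed in 280 and 271 genes. Leaving out 1 array gave 490 to 876, 266 to 367, 1 to 9 and 1 to 45. The causes were not tested. With 3 arrays per group and 18 of 45 genes near background, small changes and dim genes are beyond these arrays.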
